A study of Rattus norvegicus with 24 samples.

Results

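Lungs of rats given WCSC, whole-cigarette smoke condensate, at 20 mg/mL for 12 days were set against control lungs of 12 days, across all genes. The comparison rests on 6 of the 24 samples of the series, 3 exposed and 3 control, chosen by their labels and not by any measured value. Every animal group is labelled wild type, and the labels give no strain, sex, age, route of exposure or control treatment. The same dose and its control at 6 days, 3 samples each, are other samples and serve below as a second set of libraries. The labels do not say that replicates were separate animals, so p-values measure the spread between these samples, which may be technical.

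WCSC is the condensed particulate and semi-volatile matter of the smoke of whole cigarettes. In lung, smoke constituents are known to bind the aryl hydrocarbon receptor, which induces xenobiotic-metabolising enzymes such as Cyp1a1, and to release the factor NRF2, which induces antioxidant enzymes. Lung also answers glucocorticoids, the adrenal hormones of stress, through a nuclear receptor that induces genes such as Fkbp5 and Zbtb16, and its type II cells make fatty acids for surfactant, a step that uses the stearoyl-CoA desaturases Scd1 and Scd2.

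The 6 libraries held 5135616, 4795667 and 8330349 counts in the exposed group and 5048827, 5322816 and 7012093 in the control group, and 11421 genes were tested. Lung identity was clear in each of them: Sftpc, the surfactant protein C of type II cells, was at 9290, 3249 and 10925 CPM (counts scaled to a common library total) in exposed lungs, against 9921, 8552 and 7905 CPM in control lungs. Scgb1a1, the secretoglobin of club cells, was at 13344, 9099.5 and 10008 CPM in exposed lungs and 7931, 10277 and 9349 CPM in control lungs. Marco, a marker of alveolar macrophages, had no count in any of the 6, where 3 counts over the control group would be 0.17 CPM, while the macrophage receptor Mrc1 was at 137, 134 and 129 CPM in exposed lungs and 112, 154 and 139 CPM in control lungs.

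Exposed replicate 2 stood apart in tissue content before any gene was compared. Its summed level over the heart muscle list was 3690 CPM, where the other exposed libraries had 65.7 and 34.4 CPM and the control libraries had 48.7, 170 and 71.6 CPM. Myh6, the atrial and ventricular myosin heavy chain of rodents, was at 0.594, 495 and 0 CPM in exposed lungs and at 0, 18.2 and 0 CPM in control lungs. Control replicate 2 was the highest of the 3 controls, and ranked 3 of 24 libraries on this list. Exposed replicate 2 also ranked highest of 24 for club and goblet cell, ciliated cell, smooth muscle and adipocyte genes, and lowest of 24 for type I cell, type II cell and endothelial genes. Bpifa1, a secreted protein of upper airway epithelium, was at 0.792, 7874 and 5.00 CPM in exposed lungs, against 38.0, 27.6 and 1.80 CPM in control lungs. In tissue RNA, fewer cells of a type and less RNA per cell cannot be told apart. The lists and leading genes below are therefore given with and without exposed replicate 2. Control replicate 1 also stood apart, as its log2 CPM correlated at 0.873 to 0.934 with the other libraries compared. Pairs without it or exposed replicate 2 ran from 0.956 to 0.967. It ranked lowest of 24 for TGF-beta-induced, inflammatory cytokine, mast cell, complement and adipocyte genes and for aryl hydrocarbon receptor targets. For endothelial genes it ranked highest of 24. Values without control replicate 1 are not given for each gene below.

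**Figure D1:**
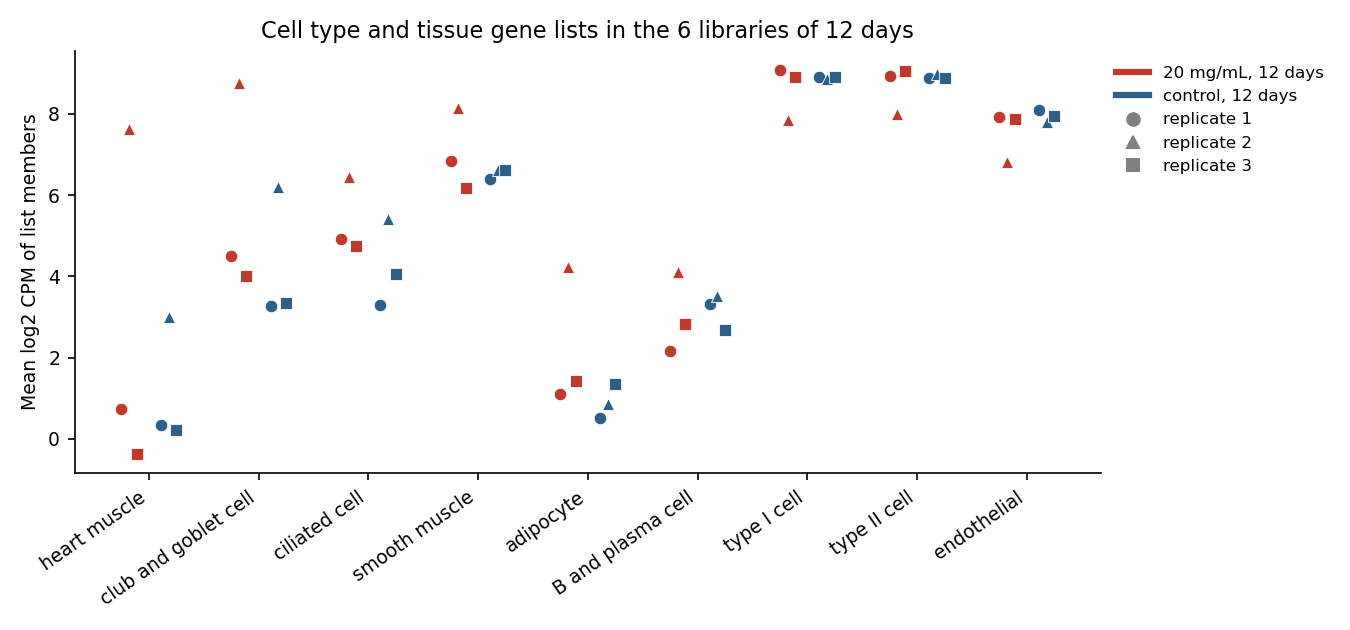
Mean log2 CPM of the members of 9 cell type and tissue lists in the 3 exposed (red) and 3 control (blue) libraries of 12 days, with the marker shape giving the replicate. Exposed replicate 2 (red triangle) lies at 7.62 for heart muscle and 8.75 for club and goblet cells, above the other 5 libraries, and at 7.86, 7.99 and 6.81 for type I cells, type II cells and endothelium, below them.

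With edgeR's quasi-likelihood test, 0 of 11421 genes (0%) passed an adjusted p of 0.05, and the smallest adjusted p was 0.594. At an unadjusted p under 0.05 there were 421 genes (3.69%), of which 268 (2.35%) had a higher and 153 (1.34%) a lower mean in exposed lungs. DESeq2 called 4 genes (0.035%) at an adjusted p of 0.05: Scd2, Krt15, Fkbp5 and Klf10. Limma voom with sample quality weights called 2 (0.0175%): Fkbp5 and Zbtb16. The count of 421 was 264 without exposed replicate 2, 721 without exposed replicate 1, 229 without control replicate 1 and 696 without control replicate 2. Of the 268 genes with a higher mean, 104 had at least 3 times the level in exposed replicate 2 that they had in either of the other exposed libraries. Without that library 114 of the 421 genes kept an unadjusted p under 0.05 and their direction. Because no gene passed in edgeR, the genes below are described by their values in each library.

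The 20 leading genes came from genes whose exposed and control libraries did not overlap and which reached a mean of 5 CPM. They were the 10 with a higher and the 10 with a lower level in exposed lungs that had the smallest unadjusted p. No overlap with a higher level in exposed lungs was found for 407 genes (3.56%), and with a lower level for 469 (4.11%). The 10 genes with a higher level were Fkbp5, Klf10, Krt15, Fabp4, Zbtb16, Dhrs7c, Memo1, Retn, Ints4 and Uap1. The 10 with a lower level were Scd2, Spidr, Scd1, Megf6, Itga4, Slc35a3, Tox3, Ccdc68, Ntn4 and Prickle1.

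**Figure D2:**
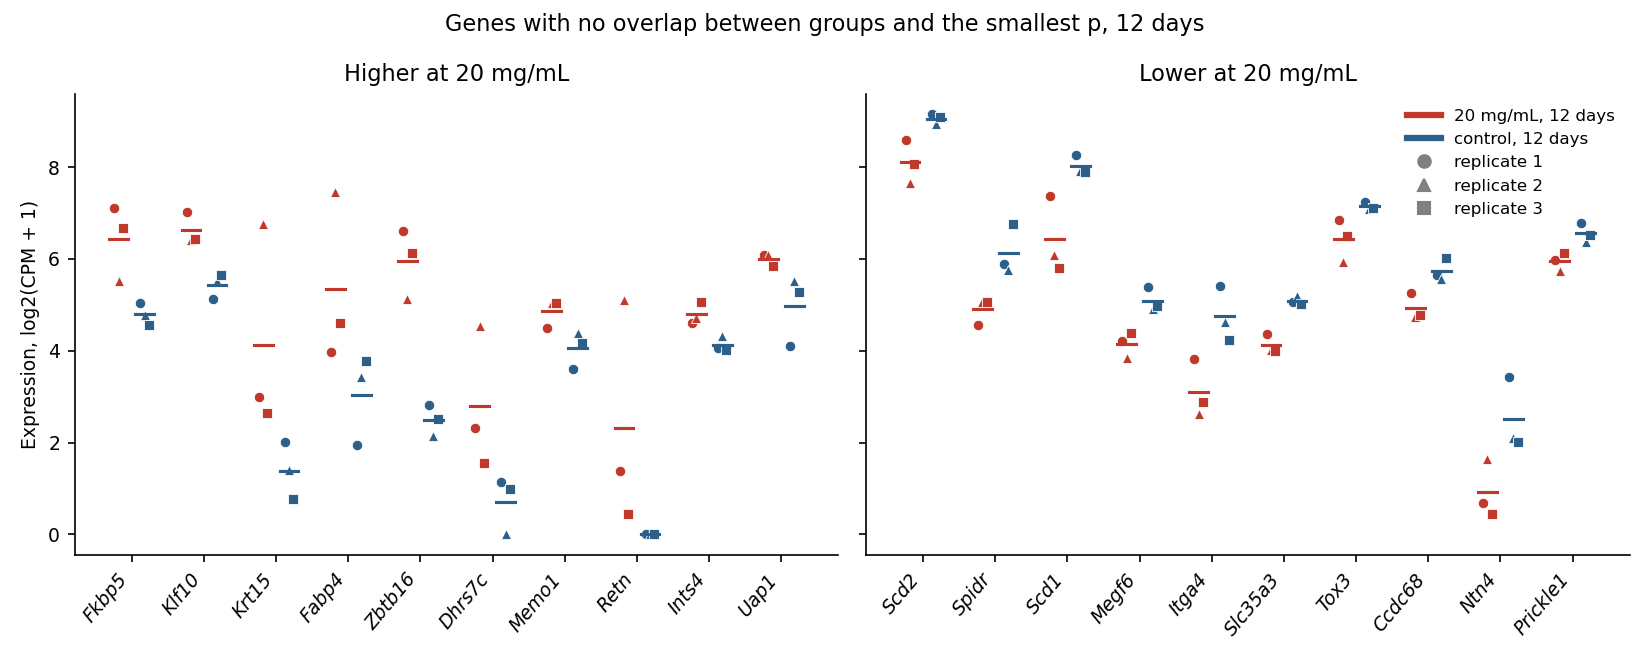
Level of the 20 leading genes as log2(CPM + 1) in each library, exposed (red) left of control (blue), with the bar at the group mean and the marker shape giving the replicate. The groups of each gene do not overlap, which is how the genes were chosen; for Krt15, Fabp4, Dhrs7c and Retn the exposed mean is carried by replicate 2 (triangle), while for Fkbp5 and Zbtb16 replicate 2 is the lowest exposed library.

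Genes that glucocorticoids induce split into both directions. Fkbp5, which encodes a co-chaperone that dampens the glucocorticoid receptor, was at 138, 44.5 and 100.5 CPM in exposed lungs, against 31.7, 26.5 and 22.5 CPM in control lungs. Every exposed library lay above every control library, and exposed replicate 2 was the closest to them. Its log2 fold change was 1.81 (SE 0.40, 95% interval 0.99 to 2.63; adjusted p = 0.594 in edgeR, 0.0234 in DESeq2 and 0.0211 in limma voom). Without exposed replicate 2 it was 2.15, with an adjusted p of 0.13 in edgeR. Zbtb16, a zinc finger transcription factor also called PLZF, was at 96.0, 34.1 and 69.1 CPM in exposed lungs, against 6.06, 3.43 and 4.72 CPM in control lungs. All 3 exposed libraries again lay well above the controls. The log2 fold change was 3.81 (SE 0.97) and 4.12 without exposed replicate 2, and the adjusted p was 0.998 in edgeR, 0.121 in DESeq2 and 0.00553 in limma voom.

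The first 300 bases around the start of Fkbp5 and of the desaturase genes Scd2 and Scd1 are printed here because these genes are leading genes on opposite sides. The sequences are RefSeq's for the rat build GRCr8, from 250 bases before the start to 50 after it, 5′ to 3′ on the gene's strand: chr20:6543506-6543805 (minus) for Fkbp5, chr1:253118127-253118426 (plus) for Scd2 and chr1:253231682-253231981 (minus) for Scd1, which RefSeq names Scd. Capitals mark the letters CCAAT on the strand shown.
Fkbp5: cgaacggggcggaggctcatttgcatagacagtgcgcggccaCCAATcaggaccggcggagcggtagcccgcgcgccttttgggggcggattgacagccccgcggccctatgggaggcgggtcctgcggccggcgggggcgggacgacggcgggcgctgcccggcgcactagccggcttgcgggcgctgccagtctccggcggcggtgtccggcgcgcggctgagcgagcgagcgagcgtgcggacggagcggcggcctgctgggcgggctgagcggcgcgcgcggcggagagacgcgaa
Scd2: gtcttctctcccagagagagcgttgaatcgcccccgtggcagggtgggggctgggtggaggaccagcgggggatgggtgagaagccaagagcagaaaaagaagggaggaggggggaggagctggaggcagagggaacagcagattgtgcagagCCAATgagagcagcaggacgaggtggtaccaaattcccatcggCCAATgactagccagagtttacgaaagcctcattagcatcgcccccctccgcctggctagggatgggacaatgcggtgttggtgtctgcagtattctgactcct
Scd1: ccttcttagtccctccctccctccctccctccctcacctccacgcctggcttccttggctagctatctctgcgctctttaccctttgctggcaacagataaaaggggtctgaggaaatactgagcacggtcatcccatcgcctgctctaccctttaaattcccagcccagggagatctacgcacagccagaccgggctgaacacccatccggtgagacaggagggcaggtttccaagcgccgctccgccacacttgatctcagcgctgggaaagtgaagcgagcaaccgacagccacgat
Searched on both strands, CCAAT stood in 6 of the 13 leading genes with a promoter in the table and in 12549 of all 33469 promoters (37.5%), with 1 match for Fkbp5, 2 for Scd2 and 0 for Scd1. The glucocorticoid receptor palindrome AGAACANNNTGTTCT stood in 5 promoters of the table (0.0149%), the E-box CACGTG in 2148 (6.42%) and the interferon-stimulated element (GAAA, any 2 bases, GAAA) in 1312 (3.92%), and 0 of the 13 leading promoters held any of these.

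Of the 19 glucocorticoid-induced genes in the files, 16 were tested, 7 with a higher and 9 with a lower mean, and 3 each way had an unadjusted p under 0.05. Over all genes tested, 5863 had a higher and 5557 a lower mean, with shares of 2.35% higher and 1.34% lower at such a p. Fkbp5 and Zbtb16, leading genes chosen by such values, were 2 of the 3 higher members at that p. The median log2 fold change of the list was -0.13, against 0.01 over all genes. Without exposed replicate 2 the list had 8 members each way and a median of -0.04, and 3 higher and 1 lower had an unadjusted p under 0.05. Angptl4, an inhibitor of lipoprotein lipase, was the other higher member at an unadjusted p under 0.05 with all libraries. It was at 5.15, 5.95 and 16.8 CPM in exposed lungs and 3.23, 2.71 and 0.971 CPM in control lungs. Ddit4, an inhibitor of mTOR signalling, was at 38.2, 42.8 and 33.8 CPM in exposed lungs, against 60.2, 107 and 82.2 CPM in control lungs. The 3 exposed libraries were close together and below all controls (log2 fold change -1.12, SE 0.38, unadjusted p = 0.00722 in edgeR). Nfkbia, the NF-kappaB inhibitor, was at 1067, 1062 and 1118 CPM in exposed lungs and 1627, 1572 and 1964 CPM in control lungs, again without overlap, with an unadjusted p of 0.0269, and 0.0557 without exposed replicate 2. Cebpd, a C/EBP transcription factor, was at 142, 106 and 135 CPM in exposed lungs and 129, 255 and 221 CPM in control lungs, where control replicate 1 lay among the exposed values, with an unadjusted p of 0.0243, and 0.092 without exposed replicate 2. Tsc22d3 (GILZ), Klf9, Sgk1 and Errfi1, classical hormone targets, had log2 fold changes from -0.25 to 0.13, and the exposed and control ranges of each overlapped. Per1, Pdk4 and Hif3a were too low to test.

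Among genes that TGF-beta and serum induce, Klf10 led. Klf10, a Krüppel-like repressor first known as TGF-beta-inducible early gene, was at 129.6, 84.6 and 84.9 CPM in exposed lungs, against 33.8, 44.6 and 49.0 CPM in control lungs. The lowest exposed library exceeded the highest control (log2 fold change 1.23, with SE 0.27 and adjusted p of 0.594 in edgeR and 0.0337 in DESeq2), and the log2 fold change was 1.33 without exposed replicate 2. Of 10 TGF-beta-induced genes tested, 7 had a higher mean, 1 of them at an unadjusted p under 0.05, where the share of all genes was 2.35%. That member was Klf10, a leading gene chosen by such values. The median log2 fold change of the list was 0.26 (0.21 without exposed replicate 2, with 5 of 10 higher). Tgif1, a SMAD corepressor, was at 13.5, 20.3 and 13.3 CPM in exposed lungs and 4.65, 12.8 and 11.4 CPM in control lungs (unadjusted p = 0.0639). In both Klf10 and Tgif1 control replicate 1 was the lowest library. Of 22 immediate-early genes, 12 had a higher and 10 a lower mean, with a median log2 fold change of 0.11 (0.12 without exposed replicate 2), and only Junb had an unadjusted p under 0.05. Junb, an AP-1 subunit, was at 56.0, 123 and 77.1 CPM in exposed lungs and 41.2, 41.5 and 55.1 CPM in control lungs, with log2 fold changes of 0.89 and of 0.54 without exposed replicate 2. Its partner Jun was at 207, 146 and 179 CPM in exposed lungs, below the 241, 252 and 285 CPM of control lungs.

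The desaturases Scd2 and Scd1 were among the leading genes on the lower side. Scd2 was at 384, 201 and 268 CPM in exposed lungs, against 565, 487 and 542 CPM in control lungs. Its log2 fold change was -0.90 (SE 0.21, 95% interval -1.33 to -0.47; adjusted p = 0.689 in edgeR and 0.0337 in DESeq2). Scd1 was at 164, 67.3 and 55.0 CPM in exposed lungs and at 306, 240.3 and 237 CPM in control lungs, a log2 fold change of -1.46 (SE 0.39). In both genes exposed replicate 1 was the closest to the controls and no exposed library reached them, and without exposed replicate 2 the log2 fold changes were -0.70 for Scd2 and -1.26 for Scd1. Scd1 and Scd2 are close paralogs, and how the counting split reads between them is not stated in the sources used here. Of 14 fatty acid synthesis genes tested, 6 had a higher and 8 a lower mean, 1 and 2 of them at an unadjusted p under 0.05. The shares of all genes at such a p were 2.35% higher and 1.34% lower. Groups did not overlap for 3 lower members, where the share of all genes was 4.11%. Scd2 and Scd1, leading genes chosen by such values, were the 2 lower members at that p. The median log2 fold change of the list was -0.25. Without exposed replicate 2, 2 members had a higher and 12 a lower mean, 2 of the lower ones at an unadjusted p under 0.05, and the median was -0.20. Fasn, the fatty acid synthase, was at 287, 170.5 and 201 CPM in exposed lungs and 309, 287 and 254 CPM in control lungs. Acly, which supplies cytosolic acetyl-CoA, was at 180.3, 107 and 191 CPM in exposed lungs and 214, 214 and 183 CPM in control lungs. Srebf1, the regulator of the pathway, had a log2 fold change of 0.03. The higher member at an unadjusted p under 0.05 with all libraries was Thrsp. It was at 1.78, 58.1 and 0.122 CPM in exposed lungs and 0.809, 1.99 and 0 CPM in control lungs, so only replicate 2 was high. Cholesterol synthesis genes had 8 of 17 higher and 9 lower, with 0 at an unadjusted p under 0.05, and a median of -0.01 that was -0.09 without exposed replicate 2.

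Abca1, the cholesterol exporter of macrophages, was at 9.70, 8.25 and 6.59 CPM in exposed lungs, against 24.9, 10.3 and 15.96 CPM in control lungs (log2 fold change -1.06, SE 0.45, unadjusted p = 0.0265 in edgeR, and 0.051 without exposed replicate 2). Nr1h3, which encodes the oxysterol receptor LXR-alpha that induces Abca1, was at 44.1, 49.1 and 57.7 CPM in exposed lungs and 79.6, 58.3 and 61.8 CPM in control lungs. Both genes were lower in every exposed library than in any control, although for Nr1h3 the unadjusted p was 0.131. At 6 days Abca1 had a log2 fold change of 0.22. The lipid-laden macrophage list that holds Abca1 had 14 of 21 members higher and 7 lower, with a median of 0.10. Without exposed replicate 2, 15 were higher and 6 lower, with a median of 0.20. Groups did not overlap for 2 of its members each way, where the shares of all genes were 3.56% higher and 4.11% lower. Klf15, a regulator of fasting metabolism, was at 31.9, 12.8 and 27.7 CPM in exposed lungs and 7.68, 15.7 and 15.96 CPM in control lungs (log2 fold change 0.87, unadjusted p = 0.0612, and 1.18 with 0.0176 without exposed replicate 2). Of 12 FoxO and fasting genes 9 had a higher mean and 0 an unadjusted p under 0.05, with a median log2 fold change of 0.13 (0.26 without exposed replicate 2).

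Among the other leading genes on the lower side, Itga4, the alpha-4 integrin of leukocytes, was at 13.1, 5.18 and 6.35 CPM in exposed lungs and 41.6, 23.8 and 17.8 CPM in control lungs, a log2 fold change of -1.76 (SE 0.51), and -1.52 without exposed replicate 2. Ntn4, the basement membrane netrin, was at 0.594, 2.11 and 0.366 CPM in exposed lungs, against 9.70, 3.25 and 3.05 CPM in control lungs. Its log2 fold change was -2.40, and -3.46 without exposed replicate 2, and rested on low levels. Megf6, an EGF-repeat protein, was at 17.4, 13.2 and 19.8 CPM in exposed lungs and 41.0, 28.9 and 30.4 CPM in control lungs (log2 fold change -0.99, and -0.84 without exposed replicate 2). Slc35a3, the Golgi transporter of UDP-N-acetylglucosamine, was at 19.6, 15.1 and 15.0 CPM in exposed lungs and 32.5, 35.4 and 31.5 CPM in control lungs (-1.0 and -0.94). Uap1, the enzyme that makes this sugar nucleotide, stood on the higher side, at 66.9, 66.9 and 56.5 CPM in exposed lungs and 16.2, 44.8 and 38.0 CPM in control lungs (0.94 and 0.90). Tox3, an HMG-box transcription cofactor, Ccdc68, a centrosomal protein, and Prickle1, a planar cell polarity protein, had log2 fold changes of -0.68, -0.84 and -0.62, which were -0.47, -0.74 and -0.52 without exposed replicate 2. For Uap1, Slc35a3 and Itga4 the 12-day controls averaged 33.0, 33.1 and 27.7 CPM, where the 6-day controls averaged 52.3, 20.9 and 14.4 CPM. At 6 days the log2 fold changes of Uap1, Slc35a3, Itga4 and Ntn4 had the other sign, at -0.14, 0.41, 0.54 and 0.10. Those of Megf6, Tox3, Ccdc68 and Prickle1 kept their sign, at -0.41, -0.77, -0.51 and -0.41.

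Spidr, a scaffold protein of homologous recombination, was at 22.6, 32.6 and 32.6 CPM in exposed lungs, against 58.6, 53.3 and 107 CPM in control lungs (log2 fold change -1.32, SE 0.34, and -1.40 without exposed replicate 2). All exposed libraries were lower, and control replicate 3 was the highest. Spidr lies next to Cebpd in RefSeq's GRCr8 annotation. The strand setting of the counting is not given in the sources used here, so reads of neighbouring or overlapping transcripts may be shared between them.

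Memo1, a mediator of cell motility downstream of ErbB receptors, was at 21.6, 32.0 and 32.1 CPM in exposed lungs and 11.1, 20.0 and 16.9 CPM in control lungs. Ints4, an Integrator complex subunit, was at 23.2, 25.1 and 32.5 CPM in exposed lungs and 15.6, 19.0 and 15.3 CPM in control lungs. These differences were small, with log2 fold changes of 0.83 and 0.70, and 0.75 each without exposed replicate 2. For Memo1, exposed replicate 1 lay close to control replicate 2. The 6-day controls averaged 27.0 CPM for Memo1 and 22.1 CPM for Ints4, both above every 12-day control. At 6 days the log2 fold changes were -0.14 and 0.06. The remaining genes on the higher side were highest in exposed replicate 2. Krt15, a keratin of basal cells, was at 6.93, 108 and 5.25 CPM in exposed lungs and 3.03, 1.63 and 0.694 CPM in control lungs, and its log2 fold change of 4.51 was 1.79 without replicate 2. Fabp4, the fatty acid binding protein of adipocytes, macrophages and capillaries, was at 14.6, 175 and 23.4 CPM in exposed lungs and 2.83, 9.75 and 12.6 CPM in control lungs, with 3.06 and 1.17. Dhrs7c, a dehydrogenase of muscle, was at 3.96, 22.2 and 1.95 CPM in exposed lungs and 1.21, 0 and 0.971 CPM in control lungs, with 3.65 and 1.98. Retn, resistin, an adipocyte hormone in rodents, was at 1.58, 33.4 and 0.366 CPM in exposed lungs, where all 3 controls were at 0. Its exposed mean of 11.8 CPM was at least 69.4-fold higher than the 0.17 CPM that 3 counts over the control group allow, while exposed replicates 1 and 3 alone averaged 0.975 CPM.

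Of 25 interferon-induced genes tested, 19 had a higher and 6 a lower mean, against 5863 higher of all 11421 genes. An unadjusted p under 0.05 was found for 2 of the higher members, where the share of all genes was 2.35%. Groups did not overlap for 6 higher and 1 lower member, where the shares of all genes were 3.56% and 4.11%. Their median log2 fold change was 0.38, and it was 0.51 without exposed replicate 2 and 0.59 without replicate 2 of both groups. Mx1, an antiviral GTPase, was at 66.7, 56.0 and 73.0 CPM in exposed lungs, against 38.0, 33.0 and 22.9 CPM in control lungs (log2 fold change 1.06, SE 0.43, unadjusted p = 0.0203 in edgeR). Its paralog Mx2 was at 54.8, 27.6 and 52.6 CPM in exposed lungs and 30.3, 27.1 and 23.2 CPM in control lungs, with exposed replicate 2 inside the control range. Like Mx1, Ifi27, Dhx58, Oasl and the chemokine Cxcl10 had no overlap, with unadjusted p from 0.125 to 0.384. Ifit1 was the member on the lower side without overlap, at 1.19, 1.15 and 1.71 CPM in exposed lungs and 1.82, 2.71 and 4.44 CPM in control lungs. Of 9 MHC class I genes 7 had a higher mean and 0 an unadjusted p under 0.05, with a median log2 fold change of 0.17 (0.35 without exposed replicate 2). RT1-A2, a classical rat class I gene, was at 487, 469 and 398 CPM in exposed lungs and 325, 250.4 and 179 CPM in control lungs. Rat class I genes are near-identical copies, so the split of reads between them is uncertain.

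As over all genes, no gene passed in edgeR in the programmes that smoke is best known to induce. Of 8 aryl hydrocarbon receptor targets in the files 4 could be tested. Of these 3 had a higher mean, and the median log2 fold change was 0.62 (0.18 without exposed replicate 2, with 2 higher). Cyp1a1 was at 13.1, 10.7 and 6.35 CPM in exposed lungs and 0.606, 5.06 and 13.9 CPM in control lungs, and the control libraries alone spanned the exposed ones. Cyp1a2, Cyp1b1, Ahrr and Ugt1a6 were too low to test. Lrat, a retinol acyltransferase, was at 19.0, 77.5 and 25.5 CPM in exposed lungs and 11.1, 13.7 and 19.6 CPM in control lungs. Its log2 fold change of 1.45 (unadjusted p = 0.00465 in edgeR) was 0.59 (0.173) without exposed replicate 2. Of 21 NRF2 antioxidant genes 15 had a higher mean and 0 an unadjusted p under 0.05, with a median log2 fold change of 0.10, and without exposed replicate 2 the count was 12 and the median 0.09. Hmox1, heme oxygenase, was at 46.1, 34.1 and 63.8 CPM in exposed lungs and 42.7, 40.3 and 28.3 CPM in control lungs (95% interval of the log2 fold change -0.34 to 1.09). Nqo1, a quinone reductase, had an interval of -0.52 to 0.39, and its sign turned in some alternatives. Heat shock genes had 11 of 12 members higher with a median of 0.14 (10 of 12 and 0.20 without exposed replicate 2). On this list the exposed libraries ranked 21, 19 and 6 of 24 and the control libraries 23, 18 and 24. At 6 days 2 of 12 were higher, with a median of -0.09. Of the list Dnaja1, an HSP70 co-chaperone, was at 129, 156 and 183 CPM in exposed lungs and 70.9, 128 and 115 CPM in control lungs (unadjusted p = 0.0134). The 12-day controls averaged 105 CPM of Dnaja1, against 152 and 154 CPM at 5 and 10 mg/mL of 12 days. The 6-day controls averaged 169 CPM, and the log2 fold change at 6 days was -0.24.

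Of 8 neutrophil genes tested, 7 had a lower mean, with a median log2 fold change of -0.70 (8 of 8 lower and -0.53 without exposed replicate 2). On this list the control libraries ranked 7, 3 and 6 of 24 and the exposed libraries 16, 18 and 12. An unadjusted p under 0.05 was found for 1 lower member, where the share of all genes was 1.34%, and for 0 without exposed replicate 2. Groups did not overlap for 3 lower members, where the share of all genes was 4.11%. S100a8 and S100a9, the calprotectin subunits, were the most abundant. S100a8 was at 121, 106 and 157 CPM in exposed lungs, against 208, 214 and 202 CPM in control lungs. S100a9 was at 223, 186 and 295 CPM in exposed lungs and 301, 365 and 334 CPM in control lungs. Both were lower in every exposed library, with unadjusted p of 0.245 and 0.35 in edgeR. Fcnb, a ficolin of neutrophils and monocytes, was at 83.5, 43.5 and 77.9 CPM in exposed lungs and 189, 114 and 105 CPM in control lungs (unadjusted p = 0.0399, and 0.15 without exposed replicate 2). The 12-day controls averaged 136 CPM of Fcnb, against 84.4 and 78.3 CPM at 5 and 10 mg/mL of 12 days. In 6-day lungs it averaged 66.0 CPM in controls and 72.8 CPM in exposed. Mpo, Elane, Cxcr2, Mmp8 and Ltf were too low to test.

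Inflammatory cytokine genes had 4 of 11 members higher and 7 lower, with a median log2 fold change of -0.38, and 2 higher and 9 lower with -0.23 without exposed replicate 2. Tnf was at 1.98, 1.53 and 1.22 CPM in exposed lungs and 0.404, 0.181 and 0 CPM in control lungs. These were 28 counts in exposed and 3 in control libraries, a CPM ratio of 8.93 (exact 95% interval for counting error 2.76 to 45.9). The unadjusted p was 0.0159 in edgeR over the samples. The 12-day controls had the lowest mean of Tnf, 0.195 CPM, against 1.70 and 1.83 CPM at 5 and 10 mg/mL of 12 days. In 6-day lungs it averaged 1.58 CPM in controls and 2.00 CPM in exposed, a log2 fold change of 0.31. Nfkb1, the p105 and p50 subunit gene, was at 50.7, 34.1 and 34.2 CPM in exposed lungs, below the 55.0, 59.2 and 100.3 CPM of control lungs (log2 fold change -0.85, unadjusted p = 0.0187, and 0.0622 without exposed replicate 2). Il1b was at 28.3, 43.5 and 51.6 CPM in exposed lungs and 55.2, 73.1 and 48.2 CPM in control lungs, which overlapped. The chemokine Ccl20 was at 0.990, 34.9 and 0.244 CPM in exposed lungs and 0, 1.08 and 0.694 CPM in control lungs, high only in replicate 2.

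Macrophage genes were close to level, with 8 of 13 higher, 5 lower and a median log2 fold change of 0.11 (0.04 without exposed replicate 2). Cd68, a lysosomal marker, was at 29.9, 21.3 and 34.7 CPM in exposed lungs and 33.8, 33.8 and 19.8 CPM in control lungs. Cd163, the haemoglobin scavenger receptor, was at 2.57, 12.8 and 6.96 CPM in exposed lungs and 2.83, 3.61 and 3.33 CPM in control lungs, with an unadjusted p of 0.0274, and 0.284 without exposed replicate 2. T and NK cell genes had 15 of 22 members higher with a median of 0.13 (11 of 22 and 0.08 without exposed replicate 2), and B and plasma cell genes a median of 0.12 that was -0.56 without exposed replicate 2. Mast cell genes had 11 of 12 members higher and a median of 0.67 (0.52 without exposed replicate 2). Cpa3, the mast cell carboxypeptidase, was at 24.1, 29.3 and 39.9 CPM in exposed lungs and 4.24, 15.3 and 12.9 CPM in control lungs, without overlap (log2 fold change 1.52, SE 0.75, unadjusted p = 0.0541). Control replicate 1 was the lowest of the 24 libraries for the mast cell list, and 0 members had an unadjusted p under 0.05.

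All 12 heart muscle genes tested had a higher mean, 11 at an unadjusted p under 0.05, where the share of all genes was 2.35%. Their median log2 fold change was 4.50, which was -1.90 without exposed replicate 2. Club and goblet cell genes had 8 of 8 higher with a median of 2.23, and -0.48 without it. Ciliated cell genes had 8 of 9 higher, with 1.22 and 0.22, and smooth muscle genes 9 of 9, with 0.54 and -0.03. Without replicate 2 of both groups the medians were -0.20 for heart muscle, 1.30 for club and goblet cells (7 of 8 higher), 1.23 for ciliated cells (8 of 9 higher) and 0.14 for smooth muscle. Type II cell genes had 8 of 11 lower with a median of -0.17, and 0.15 without it. Type I cell genes had 9 of 11 lower, with -0.28 and 0.11. All 13 endothelial genes were lower, with a median of -0.29, and -0.02 without it. Aplnr, the apelin receptor of capillary endothelium, was at 306, 145 and 331 CPM in exposed lungs, against 654, 364 and 440.2 CPM in control lungs. It was the endothelial gene without overlap, and its log2 fold change of -0.90 (unadjusted p = 0.00992) was -0.61 (0.0706) without exposed replicate 2. Aplnr averaged 310 CPM at 5 mg/mL and 309 CPM at 10 mg/mL of 12 days. Col1a1, the collagen I chain, was at 853, 8682 and 759 CPM in exposed lungs and 548, 1160 and 1218 CPM in control lungs. Exposed replicates 1 and 3 lay among the controls, and the log2 fold change was 1.81, and -0.28 without replicate 2.

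Epb42, a red cell membrane protein, was at 0.198, 0 and 0 CPM in exposed lungs and 3.64, 0.542 and 2.50 CPM in control lungs. These were 1 count and 39 counts, a CPM ratio of 0.0245 (exact 95% interval for counting error 0.000605 to 0.145). Over the samples its unadjusted p in edgeR was 0.00105 and its adjusted p 0.998, and at 6 days its log2 fold change was -0.01. Red blood cell genes had 2 of 8 higher and 6 lower, with a median of -0.17 (4 each way and -0.01 without exposed replicate 2). Cell cycle genes had 21 of 25 higher, and their median of 0.21 was -0.04 without exposed replicate 2. Pcna, the DNA polymerase clamp, was at 77.8, 78.1 and 94.8 CPM in exposed lungs and 35.4, 69.7 and 63.4 CPM in control lungs (unadjusted p = 0.0294). Aurkb, a mitotic kinase, was at 3.17, 50.2 and 7.08 CPM in exposed lungs and 0.809, 5.06 and 2.50 CPM in control lungs, high mainly in replicate 2. Herpud1, an ER-associated degradation factor, was at 220.1, 319 and 277 CPM in exposed lungs, above the 188, 185 and 186 CPM of control lungs, while Asns, asparagine synthetase, was at 12.5, 10.2 and 14.2 CPM in exposed lungs and 21.8, 21.1 and 15.0 CPM in control lungs. The ER stress list that holds both had 5 of 13 higher and 8 lower, with a median of -0.01 (-0.03 without exposed replicate 2).

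**Figure D3:**
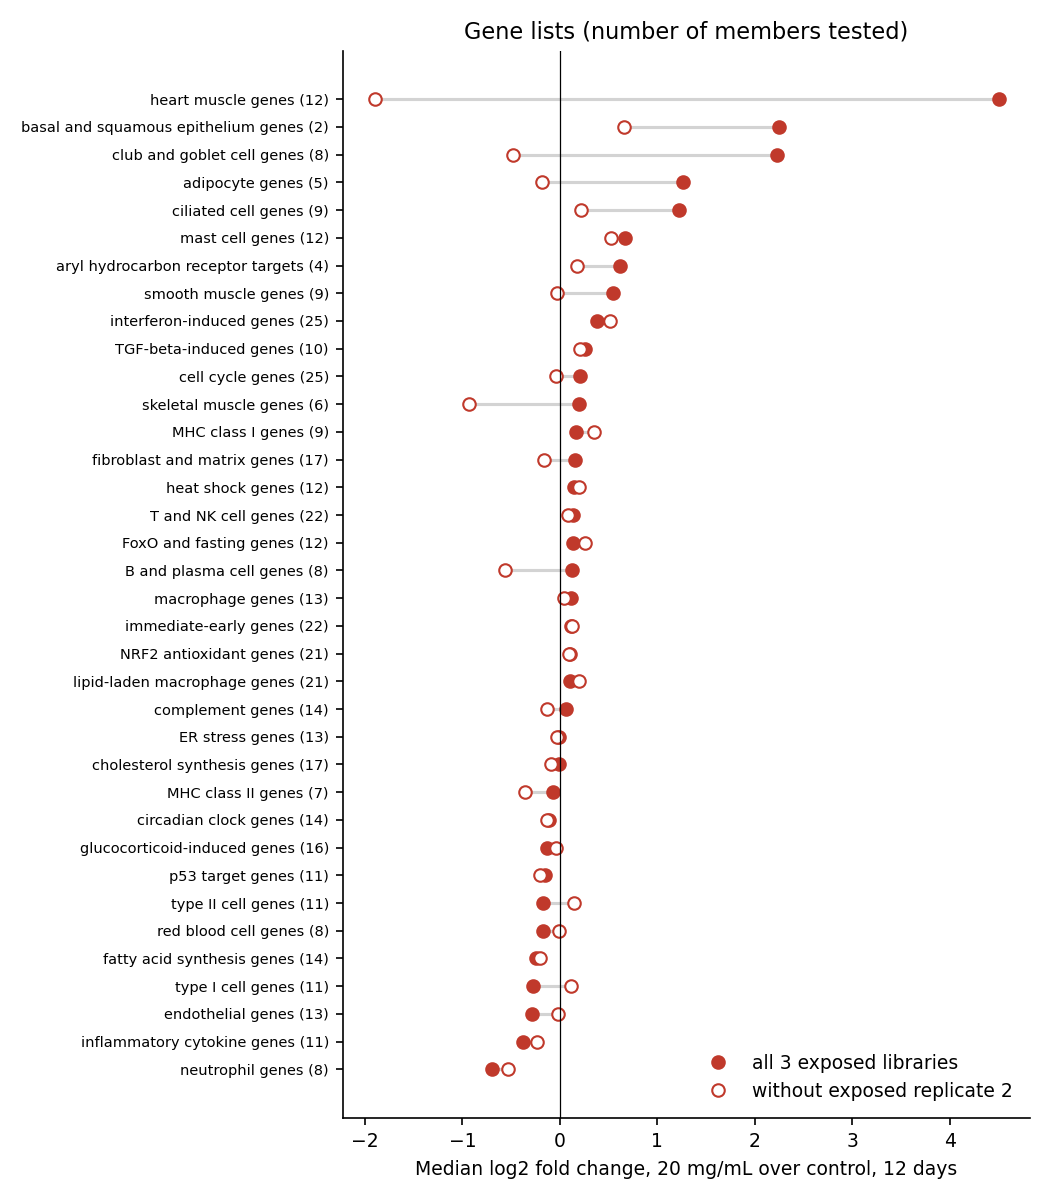
Median log2 fold change (20 mg/mL over control, 12 days) of the members of each of the 36 gene lists, with all 3 exposed libraries (filled) and without exposed replicate 2 (open), and the number of members tested in brackets. The medians of heart muscle (4.50 and -1.90) and club and goblet cells (2.23 and -0.48) turned sign without that library, while interferon-induced (0.38 and 0.51) and neutrophil genes (-0.70 and -0.53) stayed on their side.

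The 6-day libraries were other samples, so the 20 leading genes of 12 days could be measured there independently of their choice. At 6 days 0 genes passed the adjusted threshold in edgeR (0%) and 464 had an unadjusted p under 0.05 (4.06%), with 237 higher (2.08%) and 227 lower (1.99%). DESeq2 called 3 and limma voom 2. Of the 20 genes, 12 had the same sign at 6 days, where 5775 of all 11421 genes (50.6%) did. An unadjusted p under 0.05 with the same sign was found for 5 of them: Fkbp5, Zbtb16, Spidr, Tox3 and Prickle1. Zbtb16 was at 65.2, 63.4 and 64.6 CPM in 6-day exposed lungs, against 0.893, 8.54 and 6.47 CPM in 6-day control lungs. Fkbp5 was at 77.6, 60.1 and 76.9 CPM in 6-day exposed lungs, against 27.8, 27.0 and 48.1 CPM in 6-day control lungs. Spidr was at 19.1, 29.4 and 25.6 CPM in 6-day exposed lungs, against 50.4, 90.0 and 62.5 CPM in 6-day control lungs. These 3 genes and Tox3 had no overlap at either day, which at 6 days was so for 466 genes with a higher (4.08%) and 533 with a lower level (4.67%). The log2 fold changes at 6 days were 3.60 for Zbtb16, 1.06 for Fkbp5, -1.45 for Spidr and -0.77 for Tox3, and the unadjusted p of the difference between days was 0.872, 0.182, 0.789 and 0.757.

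The desaturases and Klf10 did not have such differences at 6 days. Scd1 was at 228, 192 and 177 CPM in 6-day exposed lungs and 108, 123 and 200.1 CPM in 6-day control lungs, with a log2 fold change of 0.47. The difference between days, 12 minus 6, had an unadjusted p of 0.00175 for Scd1, 0.0136 for Scd2 and 0.0141 for Klf10, and an adjusted p of 1.00 for each in edgeR. Across all genes 0 passed this interaction test after adjustment in edgeR, DESeq2 or limma voom, and 435 (3.81%) had an unadjusted p under 0.05. Of the 20 leading genes 13 did, but the test contains the 12-day values by which they were chosen. Mx1 and Mx2 had log2 fold changes of -0.23 and -0.45 at 6 days, with unadjusted interaction p of 0.0421 and 0.0207, and the median of the interferon-induced list was -0.14 at 6 days with 7 of 25 higher. The median of the neutrophil list was 0.31 at 6 days. Of the lower glucocorticoid-induced genes, Ddit4 had a log2 fold change of -1.13, Nfkbia of -1.16 and Cebpd of -1.68 at 6 days.

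**Figure D4:**
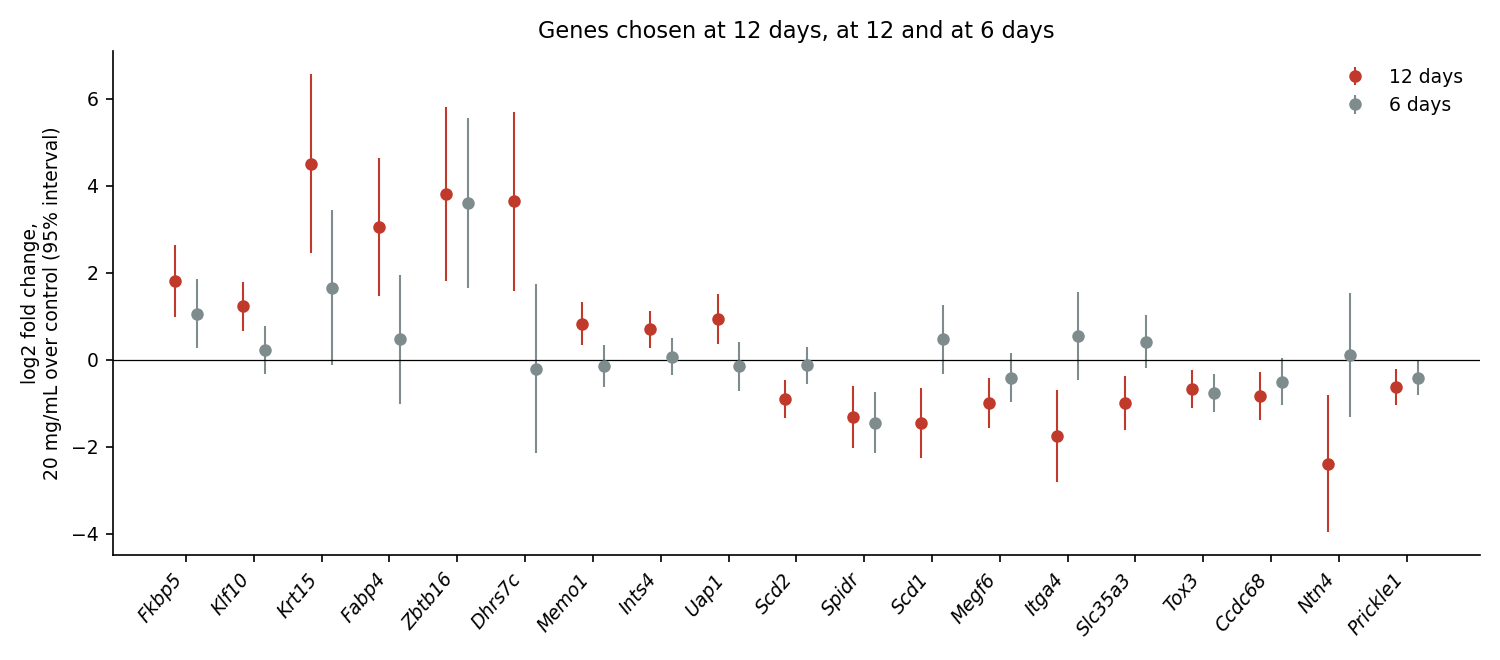
Log2 fold change of 20 mg/mL over control with its 95% interval for 19 of the leading genes at 12 days (red) and at 6 days (grey); Retn is left out because its controls were at 0. Zbtb16 (3.81 and 3.60), Fkbp5 (1.81 and 1.06) and Spidr (-1.32 and -1.45) lie on one side of 0 at both days, while Scd1 (-1.46 and 0.47) lies on opposite sides.

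The lower doses of 12 days share the control samples with 20 mg/mL, so their levels are set side by side without a test between doses. In the order control, 5, 10 and 20 mg/mL, Fkbp5 averaged 26.9 ± 4.64, 38.6 ± 14.0, 51.5 ± 16.8 and 94.3 ± 47.0 CPM (mean ± SD, n = 3 each). Zbtb16 averaged 4.74 ± 1.32, 4.21 ± 3.43, 25.0 ± 3.20 and 66.4 ± 31.0 CPM. For both genes the level at 5 mg/mL overlapped the controls and the 10 mg/mL libraries lay above them. Klf10 averaged 42.4 ± 7.84, 52.998 ± 13.5, 84.4 ± 11.3 and 99.7 ± 25.9 CPM in the same order of doses. Scd1 averaged 261 ± 38.9, 169.6 ± 14.4, 154 ± 77.4 and 95.3 ± 59.5 CPM, and Scd2 averaged 531 ± 40.1, 428 ± 64.9, 415 ± 73.5 and 284 ± 92.5 CPM. The means of these 5 genes at 20 mg/mL were the farthest from control, and the libraries of 10 and 20 mg/mL overlapped for each of them but Zbtb16. As leading genes, they and Spidr were chosen by their difference between the 20 mg/mL and control libraries. Their distance from control at 20 mg/mL therefore follows in part from the choice. Spidr averaged 72.9 ± 29.4, 63.5 ± 30.9, 53.9 ± 13.1 and 29.2 ± 5.79 CPM, and only the 20 mg/mL libraries lay clear of the controls.

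**Figure D5:**
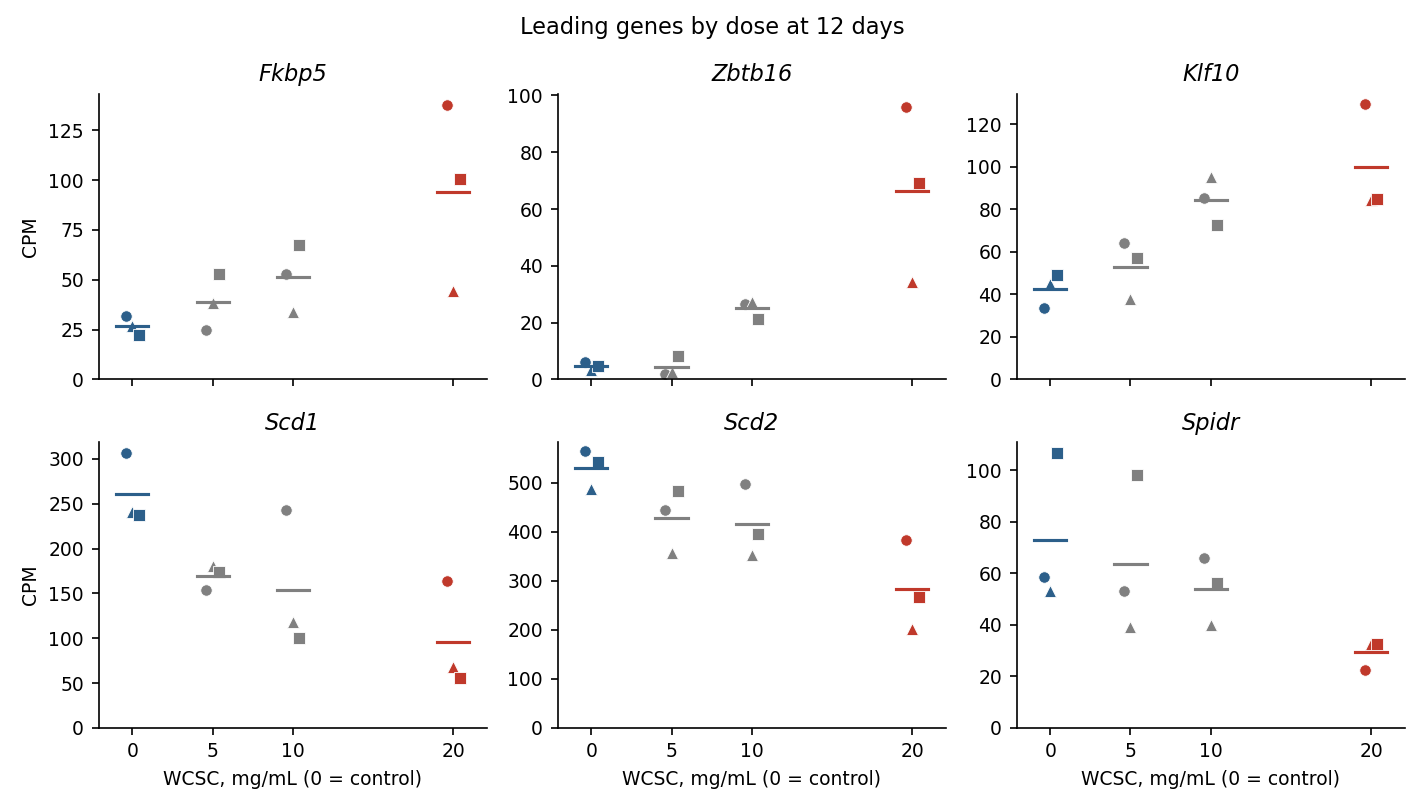
CPM of 6 leading genes at 12 days in each library against the WCSC concentration in mg/mL (0 is control), with the bar at the group mean. Mean Zbtb16 is 4.74, 4.21, 25.0 and 66.4 CPM at 0, 5, 10 and 20 mg/mL, and mean Scd1 is 261, 169.6, 154 and 95.3 CPM.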

How the data were processed

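RNA from rat lung was made into libraries with the Lexogen QuantSeq kit, which reads the ends of polyadenylated transcripts, per the labels' protocols. Bowtie2, bedtools and the build rn6 are named in the submitters' processing notes, while versions, annotation and strand setting are not stated in the sources used here. The deposited files hold raw counts per gene symbol, 1 file per sample. Of 17048 lines, the 167 with a repeated symbol and a lower total (0.772% of counts) were dropped. In R 4.3.3, edgeR 4.0.16 was fitted to 8 group means over all 24 libraries with TMM scaling (0.804 to 1.12), filterByExpr and the quasi-likelihood test, with 16 residual degrees of freedom, a common biological coefficient of variation of 0.335 and two-sided Benjamini-Hochberg p-values over 11421 genes. Library totals ranged from 4795667 to 11109713 counts, and CPM are TMM-scaled.

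The members and the 36 lists (542 genes) were chosen with earlier results of these data known, and no set test was run. Named genes were those called by DESeq2 or limma voom, the 20 leading genes, up to 3 members of each list with an unadjusted p under 0.05, and 10 smoke and lung genes whatever their p. Other list members named, and the CCAAT motif, were chosen after their values were seen. Unnamed gene models were left out of the leading genes. Some list members are not reported here by name.

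Alternatives were RLE and upper-quartile scaling, no expression filter, DESeq2 1.42.0, a fit restricted to the compared groups, voom of limma 3.58.1 with quality weights per sample, replicate number as a block, the heart muscle mean as a covariate, repeated symbols left out, and each library left out in turn. The sequences are RefSeq's for GRCr8, and no rn6 genome was used here.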

Additional observations from a re-analysis of the deposited data

How the results depend on the processing

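Direction held for 54 of the 70 named genes under all 16 alternatives, and 28 of 1108 gene values turned sign. Without exposed replicate 2 the log2 fold changes were -0.02 for Thrsp, -0.04 for Ccl20, -2.83 for Bpifa1, -2.21 for Scgb3a1, -1.03 for Agr2, -1.42 for Tnnt2, -0.53 for Actc1, -5.62 for Ckm (a fitted value with the remaining exposed libraries at 0, so no bound), -0.03 for Cnn1, -0.14 for Des, -0.28 for Col1a1, -0.35 for Lum, -0.18 for Cfd and 0.20 for Sftpc. Without replicate 2 of both groups they were -2.64 for Bpifa1, -0.31 for Actc1, -0.13 for Col1a1, -0.31 for Lum and 0.18 for Sftpc. With the heart muscle mean as a covariate they were -0.46 for Bpifa1, -0.04 for Scgb3a1 and -2.06 for Ckm, and in limma voom -0.08 for Agr2, -1.92 for Ckm and 0.00 for Nqo1. With 1 library left out in turn, the values ran from those without exposed replicate 2 up to 5.72 for Thrsp, 4.91 for Ccl20, 7.50 for Bpifa1, 10.0 for Scgb3a1, 4.57 for Agr2, 6.32 for Tnnt2, 3.34 for Actc1, 5.87 for Ckm, 2.01 for Cnn1, 1.89 for Des, 2.29 for Col1a1, 1.70 for Lum and 1.72 for Cfd, and from -0.16 to 0.06 for Nqo1 (0.05 without exposed replicate 3), -0.49 to 0.20 for Sftpc and -1.16 to 0.36 for Cxcl1. The cause was not tested. Control replicate 1 was the control farthest from the exposed libraries for Uap1, Ntn4, Pcna and Dnaja1. Their log2 fold changes ran from 0.61 to 1.22, -3.46 to -1.65, 0.33 to 0.76 and 0.36 to 0.75 with 1 library left out in turn.

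Against 0 genes in edgeR, the adjusted threshold was passed at 12 days by 4 genes in DESeq2, by 2 in limma voom and by 1 (Zbtb16) in the fit of only the groups compared, and by 0 in every other alternative. At 6 days it was passed by 3 genes in DESeq2 (Cebpd, Epha4 and Hist1h1d), by 2 in limma voom (Cebpd and Zbtb16), and by Cebpd, 1 gene, with RLE scaling, without the filter and with the replicate block. For the difference between days every alternative gave 0. Genes at an unadjusted p under 0.05 numbered 421 at 12 days and 229 to 721 with 1 library left out. They numbered 464 at 6 days, 326 to 629 with 1 library left out and 1288 in limma voom. For the difference between days they numbered 435, 323 to 662 with 1 library left out and 680 in limma voom.

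Replicate numbers are shared between groups. Exposed and control libraries with the same number correlated at 0.109, 0.205 and 0.00974 in their deviations at 12 days. Libraries with different numbers correlated at -0.198 to 0.0624. At 6 days the same numbers gave 0.133, -0.105 and 0.242, and different numbers gave -0.301 to 0.187. Deviations from means of 3 libraries cannot decide whether a number marks a shared batch or pairing. With the replicate block 0 genes passed at 12 days and 502 had an unadjusted p under 0.05, against 593 at 6 days and 572 for the difference between days. Of 576 list medians 45 moved by more than the spread between exposed libraries. With 3 samples a group, 4795667 to 8330349 counts and 1 library of other tissue content, differences of low genes were not resolved at this depth.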

Other observations

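Among genes that belong to no list above, a few had an unadjusted p under 0.05 in edgeR with the same sign at 12 and at 6 days. Over all genes tested, those described above included, 17 did so and 9 had opposite signs at such a p. Those named here were chosen after their values were seen. Alkbh4, a demethylase of the AlkB family, was at 7.72, 7.29 and 6.35 CPM in exposed lungs, against 11.9, 12.1 and 11.8 CPM in control lungs at 12 days. At 6 days it averaged 5.43 ± 0.101 CPM in exposed lungs and 11.7 ± 2.34 CPM in control lungs (SD, n = 3 each), and the groups did not overlap at either day. The log2 fold changes were -0.75 (SE 0.29) and -1.11 (SE 0.29). Adra1d, the alpha-1D adrenergic receptor, was at 0.396, 1.34 and 2.44 CPM in exposed lungs and 4.24, 2.89 and 4.30 CPM in control lungs at 12 days, also without overlap at either day.

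Atp1b1, the beta subunit of the sodium pump of alveolar epithelium, was at 459, 552 and 485 CPM in exposed lungs, against 274, 426 and 298 CPM in control lungs at 12 days, with log2 fold changes of 0.58 at 12 days and 0.84 at 6 days. Lgals3bp, a secreted galectin-3-binding protein, had log2 fold changes of 0.61 and 0.45, and its 12-day value was 0.35 without exposed replicate 2. Adjusted p in edgeR was 0.998 at 12 days for each of these 4 genes.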
